A study of Mus musculus with 36 samples.

Results

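CD4 T cells without TRIM28 cultured in the Th17 condition (KO Th17, 3 arrays) were compared with cells of the same genotype cultured in the Th0 condition (KO Th0, 3 arrays), 6 of the 36 arrays of the series. The arrays were chosen by their sample titles, and genes were read from probe sets annotated with exactly 1 symbol, which gave 22180 genes, of which 13082 were bright enough to be tested. In the series, naive CD4 T cells from TRIM28KO mice and from WT littermates were enriched magnetically, sorted by flow cytometry and measured directly or after 72 h of stimulation through CD3 (antibody fixed to the plate) and CD28 (antibody in solution). The cultures were named Th0, Th1, Th2, Th17 and Treg by the submitters, with 3 arrays for each genotype and condition. WT Th0 and WT Th17 cells, 3 arrays each, gave the same step from Th0 to Th17 with TRIM28 present and differed from the KO groups by genotype alone, as far as the labels go. The labels name no cytokine added to a culture, no age, no deletion allele and no Cre driver, and they do not say that arrays of a group came from different mice, so the p-values measure only the spread between these samples, which may be technical.

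Th17 cells are helper T cells that secrete IL-17A and IL-17F and are known for recruiting neutrophils to mucosal surfaces and for driving autoimmune inflammation. TGF-beta together with IL-6 starts the program through STAT3, BATF and IRF4, nuclear receptors such as RORα (Rora) drive the cytokine genes, and IL-23 and IL-1 sustain it. TGF-beta with IL-2 in place of IL-6 leads toward Treg cells, which are defined by the transcription factor FOXP3. TRIM28 (KAP1) is a nuclear scaffold that KRAB zinc-finger proteins tether to chromatin, where it brings the histone methyltransferase SETDB1 and heterochromatin proteins.

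All levels are log2 values after robust multi-array averaging (RMA), so a difference of 1 is a 2-fold change, and a gene was called where the adjusted p of limma was under 0.05. Over the 12 arrays of the KO and WT Th0 and Th17 groups, array medians lay between 5.18 and 5.29, and each array correlated with the others of its group at 0.980 to 0.994 on average. KO Th0 sample 1 stood farthest from its group, with a root mean square deviation of 0.227 against 0.106 to 0.196 for the other 11 arrays, and list counts that change without it are given both ways. Trim28 read 6.06, 6.04 and 5.68 in KO Th0 and 6.33, 6.26 and 6.42 in KO Th17, against 9.84, 9.67 and 9.77 in WT Th0 and 9.98, 9.70 and 9.74 in WT Th17. Every KO sample lay below every WT sample, by 3.83 on the log2 scale in Th0 (adjusted p = 4.8e-16) and 3.48 in Th17 (adjusted p = 2.3e-15). The mean level of the CD4 T cell identity list (Cd4, Cd3e, Cd28 and others) was 10.6 in all 3 KO Th0 samples and 10.7 to 10.8 in the KO Th17 samples, and 3 of its 9 tested members were higher and 1 lower in KO Th17 (2 and 1 without KO Th0 sample 1). Over all genes tested, 25.4% were higher and 26.2% lower, so the rises lay near that share. The Th0 label did not go with a low Foxp3 level: this gene, which defines Treg cells, averaged 11.5 ± 0.31 (SD, n = 3) in KO Th0 and 10.9 ± 0.28 (n = 3) in WT Th0, close to the 12.04 ± 0.10 (n = 3) of KO Treg and above the 8.28 ± 0.54 (n = 3) of KO naive cells. The Th0 groups are therefore named by their labels alone, and every step below is measured from cultures with high Foxp3.

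The culture condition separated the KO cells widely: 6751 of 13082 genes (51.6%) were called between KO Th17 and KO Th0, 3318 of them higher in KO Th17 (25.4%) and 3433 lower (26.2%). Counts of list members called in this step are to be read against these shares. Rises were larger than falls, with 1100 genes at least 2-fold higher and 616 at least 2-fold lower, while the median change over all genes was -0.01. With the arrays normalized again by cyclic loess, which moved the median of all genes to 0.10, the calls were 4318 higher and 2551 lower, so the direction of small changes rests on the scaling. In 3720 genes (28.4%) all 3 KO Th17 samples lay above all 3 KO Th0 samples, and in 3852 (29.4%) they lay below. The WT cells made the step with 5119 calls (39.1%), 2657 higher (20.3%) and 2462 lower (18.8%). In all bulk values here, fewer cells of a type and less RNA per cell cannot be told apart.

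The secreted products of Th17 cells rose together in the cells without TRIM28: 8 of the 10 tested members of the Th17 cytokine list were higher and none was lower, with a median of 4.01 against -0.01 over all genes. The count is a description only. Il17a averaged 4.34 or less outside the Th17 groups, so it was bright enough to be tested only through Th17 arrays. Such genes had little room to fall in this step. Il17f, which encodes IL-17F, read 4.96, 4.89 and 5.01 in KO Th0 and 11.91, 11.71 and 11.28 in KO Th17, a difference of 6.68 (SE 0.23, adjusted p = 4.9e-19), or 103-fold. All 3 Th17 samples lay far above every Th0 sample. Il17a, which encodes IL-17A, read 4.47, 4.38 and 4.16 in KO Th0 and 8.28, 8.32 and 7.46 in KO Th17, a 12.9-fold rise (log2 3.68, SE 0.19, adjusted p = 2.4e-15). KO Th17 sample 3 was the lowest of its group for both genes. Il21, the cytokine that feeds back on Th17 cells through STAT3, read 4.80, 4.68 and 4.53 in KO Th0 and 10.58, 10.43 and 10.65 in KO Th17, a 58.9-fold rise (log2 5.88, SE 0.28, adjusted p = 4.9e-16).

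Most other cytokines on the list rose too. Il24, an IL-10 family cytokine, read 4.39, 4.47 and 4.56 in KO Th0 and 10.66, 9.60 and 8.91 in KO Th17 (log2 5.25, SE 0.34, adjusted p = 3.7e-13). Il9, a mast cell growth factor made by several helper subsets, read 4.96, 4.80 and 4.99 in KO Th0 and 10.48, 9.92 and 9.05 in KO Th17 (log2 4.90, SE 0.53, adjusted p = 8.3e-09). For both, sample 1 was the highest and sample 3 the lowest of the KO Th17 group, and no Th17 sample reached down to the Th0 samples. Csf2, which encodes GM-CSF, a product of inflammatory Th17 cells, read 4.13, 4.37 and 4.71 in KO Th0 and 8.48, 8.70 and 9.05 in KO Th17 (log2 4.34, SE 0.32, adjusted p = 3.4e-12). Il10, the regulatory cytokine, read 4.59, 4.26 and 4.52 in KO Th0 and 7.96, 7.10 and 5.06 in KO Th17 (log2 2.25, SE 0.44, adjusted p = 9.6e-05). Here KO Th17 sample 3 came close to the Th0 level, though the groups did not overlap. Lif, an IL-6 family cytokine, rose by 2.80 (adjusted p = 1.4e-06). Ccl20, the chemokine ligand of CCR6, did not follow: it read 5.49, 5.28 and 5.39 in KO Th0 and 5.53, 5.51 and 5.19 in KO Th17 (log2 0.02, adjusted p = 0.95). Tnf, at 0.22, was not called either, and Il22 was too dim to be tested, at 2.42 to 2.67 in the KO Th17 samples.

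The promoters of the cytokine pair and of the IL-23 receptor gene are shown because IL-17A and IL-17F define these cells and Il23r had the largest rise, and ROR proteins bind the letters AGGTCA with an A- and T-rich run before them. Capitals mark AGGTCA or, on the other strand, TGACCT in the window from 250 bases before to 50 bases after the start site (RefSeq, build GRCm38.p6).
Il17a, chr1:20730655-20730954, plus strand: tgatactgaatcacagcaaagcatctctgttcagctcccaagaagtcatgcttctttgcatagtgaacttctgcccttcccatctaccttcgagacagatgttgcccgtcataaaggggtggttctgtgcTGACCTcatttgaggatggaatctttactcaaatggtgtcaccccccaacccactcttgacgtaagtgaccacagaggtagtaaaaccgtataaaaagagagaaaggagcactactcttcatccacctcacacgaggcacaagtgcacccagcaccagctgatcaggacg
Il17f, chr1:20784221-20784520, minus strand: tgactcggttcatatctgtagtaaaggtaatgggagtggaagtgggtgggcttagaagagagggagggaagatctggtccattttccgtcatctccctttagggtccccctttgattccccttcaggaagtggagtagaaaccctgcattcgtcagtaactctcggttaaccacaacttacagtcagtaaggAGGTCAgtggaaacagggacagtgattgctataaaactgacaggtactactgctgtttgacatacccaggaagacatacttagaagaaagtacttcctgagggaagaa
Il23r, chr6:67491806-67492105, minus strand: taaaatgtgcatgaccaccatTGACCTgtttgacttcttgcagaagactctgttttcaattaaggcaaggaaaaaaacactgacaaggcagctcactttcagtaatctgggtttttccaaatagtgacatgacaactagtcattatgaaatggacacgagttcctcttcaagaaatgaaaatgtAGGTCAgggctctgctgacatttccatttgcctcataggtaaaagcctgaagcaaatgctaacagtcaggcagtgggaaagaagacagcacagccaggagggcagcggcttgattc
Counted from the start site, the letters stood at -120 in Il17a, at -58 in Il17f and at -229 and -66 in Il23r. On either strand they occurred in 5340 of all 32851 windows (16.3%), in 3 of the 10 windows of the Th17 cytokine list and in 4 of the 22 windows (18.2%) of the Th17 receptor list. The AP-1 letters TGANTCA occurred in 3 of the 10 cytokine windows and 7.81% of all windows, and the STAT letters TTCNNNGAA in 0 of the 10 and 8.3% of all. These are matches of letters, not measured binding.

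Receptors through which Th17 cells are sustained rose as well. Of 15 tested members of the Th17 receptor and surface list, 11 were higher and 3 lower, with a median of 2.28 against -0.01 over all genes. The limit named for Il17a holds for Il23r too, which averaged 4.81 or less outside the Th17 groups. Il23r, the specific subunit of the IL-23 receptor, read 3.91, 3.93 and 3.81 in KO Th0 and 10.33, 10.49 and 11.15 in KO Th17, a 110-fold rise (log2 6.78, SE 0.22, adjusted p = 3.1e-19), and ranked highest of all genes by the naming rule. Il1r1, the signalling receptor for IL-1, read 4.13, 3.83 and 3.74 in KO Th0 and 9.88, 9.67 and 9.77 in KO Th17, a 58.7-fold rise (log2 5.88, SE 0.20, adjusted p = 4.1e-19). The 3 KO Th17 samples lay within a narrow band for this gene. Il1r2, the decoy receptor that binds IL-1 without signalling and is not on this list, read 4.37, 4.66 and 4.42 in KO Th0 and 10.17, 10.05 and 10.18 in KO Th17, a 50.2-fold rise. KO Th2 was high for it too, with a mean of 10.30 against 10.14 in KO Th17. Ccr6, the chemokine receptor that marks Th17 cells, read 4.74, 4.43 and 5.25 in KO Th0 and 8.51, 8.60 and 8.48 in KO Th17, a 13.2-fold rise (log2 3.72, SE 0.40, adjusted p = 8.3e-09). Il12rb1, the subunit shared by the IL-12 and IL-23 receptors, rose by 2.54, and Il17re, a receptor subunit for IL-17C, by 2.40. The 3 members that fell were Il6st (-1.37) and Il6ra (-1.03), the signalling and binding subunits of the IL-6 receptor, and Ly6c2 (-1.33), a surface protein of activated and memory T cells. Podxl, at -0.26, was not called.

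Among the Th17 transcription factors, 11 of 13 were higher and 2 lower in KO Th17 (11 and 1 without KO Th0 sample 1), with a median of 1.14. Rora read 6.77, 6.80 and 7.05 in KO Th0 and 8.12, 7.93 and 7.66 in KO Th17 (log2 1.03, SE 0.19, adjusted p = 4.8e-05). Ahr, the ligand-activated receptor that supports IL-22 production, read 6.45, 6.25 and 7.08 in KO Th0 and 9.96, 9.92 and 9.46 in KO Th17 (log2 3.19, SE 0.30, adjusted p = 4.9e-10). Irf4, an early factor of the Th17 program, read 7.86, 7.99 and 8.79 in KO Th0 and 11.40, 11.34 and 11.37 in KO Th17 (log2 3.16, SE 0.32, adjusted p = 2.4e-09). Both genes had their highest Th0 level in KO Th0 sample 3, which still lay below every Th17 sample. Batf, the partner of IRF4, read 8.36, 8.60 and 8.58 in KO Th0 and 10.06, 9.91 and 10.25 in KO Th17 (log2 1.56, SE 0.17, adjusted p = 7.8e-09). Stat3, which carries the IL-6, IL-21 and IL-23 signals, read 10.57, 10.66 and 10.79 in KO Th0 and 11.74, 11.68 and 11.77 in KO Th17 (log2 1.06, SE 0.09). Maf, a driver of IL-10 and IL-21, read 5.65, 5.77 and 5.90 in KO Th0 and 8.22, 8.40 and 7.69 in KO Th17 (log2 2.33, SE 0.16, adjusted p = 9.9e-13). The AP-1 factor Fosl2 rose by 2.86, Bhlhe40 by 1.76 and Hif1a, the oxygen-regulated factor, by 1.14, whereas Runx1 fell by 0.61 and Nfkbiz, an atypical IκB protein, fell by 0.79.

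**Figure D1:**
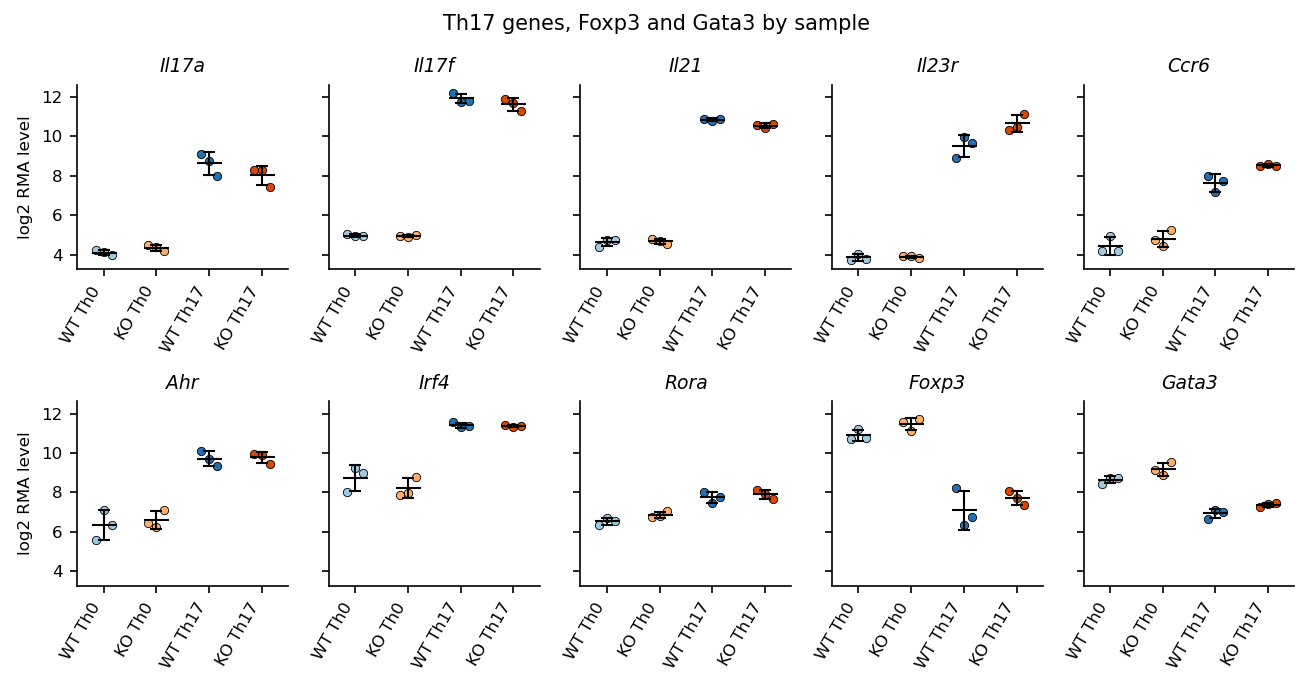
Log2 RMA level of 10 genes in the 3 samples each of WT Th0, KO Th0, WT Th17 and KO Th17. Points are samples, the horizontal line is the group mean and the bars are 1 SD. In KO cells Il17a, Il17f, Il21, Il23r, Ccr6, Ahr, Irf4 and Rora lie higher in all 3 Th17 samples than in all 3 Th0 samples, and Foxp3 and Gata3 lie lower.

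The signals upstream moved in part. Of 14 tested members of the IL-6 and STAT3 list, 8 rose and 1 (Il6st) fell, or 9 and 1 without KO Th0 sample 1, with a median of 0.76. Socs3, the feedback inhibitor of IL-6 signalling, rose by 1.13 (SE 0.12, adjusted p = 2.8e-09) and Bcl3 rose by 1.61. Of 18 tested TGF-beta pathway genes, 10 rose and 4 fell, with a median of 0.32. Tgfb3, the TGF-beta isoform that Th17 cells make themselves, read 6.78, 7.25 and 6.73 in KO Th0 and 10.82, 10.43 and 10.54 in KO Th17 (log2 3.68, SE 0.31, adjusted p = 9.1e-11). Furin, the protease that processes TGF-beta precursors, rose by 2.27, and the TGF-beta feedback gene Pmepa1 by 1.91. The 4 that fell were the receptor genes Tgfbr2 (-0.88) and Tgfbr1 (-0.67), Smad4 (-0.60) and the inhibitory Smad7 (-0.83), which read 9.79, 9.44 and 9.78 in KO Th0 and 8.94, 8.87 and 8.72 in KO Th17. Of 4 tested genes of the aryl hydrocarbon receptor list, Ahr itself and its target Tiparp (1.06) rose, and Cyp1a1 (-0.08) and Entpd1 (-0.03) were not called.

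Genes that are not on the Th17 lists were among the 10 highest rises, and they are given here with Timp1, which is on one. Ly6g, a surface protein best known from neutrophils, read 4.48, 4.68 and 4.85 in KO Th0 and 11.07, 11.10 and 9.90 in KO Th17, a 64.8-fold rise (log2 6.02, SE 0.37). Ly6 genes are close relatives, and probes may read more than 1 of them. KO Th2 was also high for Ly6g, with a mean of 10.22 against 10.69 in KO Th17. Klri2, a lectin-like receptor first described on natural killer cells, read 3.52, 3.90 and 3.90 in KO Th0 and 9.54, 10.15 and 9.27 in KO Th17, a 58.8-fold rise. Timp1, an inhibitor of matrix proteases that is on the Th17 receptor and surface list, read 4.39, 4.10 and 4.26 in KO Th0 and 9.84, 9.999 and 9.77 in KO Th17, a 49.1-fold rise. The groups lay far apart for all 3 genes. Atp6v0d2, a subunit of the vacuolar proton pump, read 3.26, 3.18 and 3.27 in KO Th0 and 8.75, 8.84 and 8.64 in KO Th17, a 45.5-fold rise. M1ap, a meiosis-associated gene, read 4.88, 5.0 and 4.79 in KO Th0 and 10.59, 10.21 and 10.39 in KO Th17, also a 45.5-fold rise.

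Sugar metabolism and hypoxia genes were higher as a group. Of 19 tested members of the glycolysis and hypoxia list, 18 rose and 1 fell, with a median of 1.98 against -0.01 over all genes. Egln3, an oxygen-sensing prolyl hydroxylase that is itself induced by hypoxia, read 7.75, 8.27 and 7.52 in KO Th0 and 12.10, 11.96 and 12.12 in KO Th17, an 18.5-fold rise. Hk2, the hexokinase that commits glucose to glycolysis, read 6.24, 6.31 and 6.14 in KO Th0 and 9.46, 9.20 and 9.45 in KO Th17, an 8.82-fold rise. Both genes were uniform within KO Th17 and clear of every Th0 sample. Aldoc, an aldolase, rose by 3.28, Slc16a3, the lactate exporter, by 3.25, Vegfa by 2.71 and Pgam1, a phosphoglycerate mutase, by 2.51. Pdk1, the kinase that holds pyruvate back from the mitochondrion, was the exception and fell by 1.03 (SE 0.16, adjusted p = 3.7e-06).

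The promoters of Egln3 and Hk2 are shown because they hold the letters of the hypoxia response element, ACGTG, and belong to the genes of this list that moved most. Capitals mark ACGTG or, on the other strand, CACGT in the same kind of window.
Egln3, chr12:54203825-54204124, minus strand: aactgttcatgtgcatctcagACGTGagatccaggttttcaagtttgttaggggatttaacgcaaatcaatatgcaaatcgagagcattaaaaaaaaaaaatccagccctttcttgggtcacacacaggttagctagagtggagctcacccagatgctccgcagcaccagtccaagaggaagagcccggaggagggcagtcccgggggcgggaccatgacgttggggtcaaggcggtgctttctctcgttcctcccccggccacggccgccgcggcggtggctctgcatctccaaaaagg
Hk2, chr6:82774405-82774704, minus strand: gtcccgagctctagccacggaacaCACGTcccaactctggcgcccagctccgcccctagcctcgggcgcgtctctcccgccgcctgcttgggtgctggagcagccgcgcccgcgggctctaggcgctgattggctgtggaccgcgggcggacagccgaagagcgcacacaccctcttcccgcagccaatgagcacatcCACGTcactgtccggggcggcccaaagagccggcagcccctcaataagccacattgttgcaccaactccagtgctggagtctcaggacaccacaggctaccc
The letters occurred in 16 of the 31 windows of the 21 glycolysis and hypoxia genes matched (51.6%), against 6447 of all 32851 windows (19.6%). ACGTG is contained in the E-box CACGTG, which was present in 2 of the 31 windows and 7.15% of all. Start sites of 1 gene lie close together and share bases, so the windows are not independent, and a match says nothing of a factor being bound.

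Cholesterol and fatty acid synthesis genes rose almost without exception: 20 of 21 tested members were higher in KO Th17, none was lower, and the median was 1.68. Scd1, which makes monounsaturated fatty acids, read 4.52, 5.23 and 5.27 in KO Th0 and 10.57, 10.32 and 10.53 in KO Th17, a 44.1-fold rise (log2 5.46, SE 0.48). Fads2, the delta-6 desaturase, read 5.39, 7.47 and 7.33 in KO Th0 and 11.03, 10.90 and 10.98 in KO Th17, a rise of 4.24, or 3.57 without KO Th0 sample 1, which was by far the lowest. Fdps, which makes farnesyl diphosphate, read 8.30, 9.39 and 8.99 in KO Th0 and 11.41, 11.31 and 11.40 in KO Th17 (log2 2.48). In each of the 3 genes the spread was wide in KO Th0 and narrow in KO Th17. Hmgcs1, the synthase upstream of HMG-CoA reductase, read 8.13, 8.79 and 8.32 in KO Th0 and 10.32, 10.46 and 10.70 in KO Th17 (log2 2.08). Srebf2, the master regulator of sterol synthesis, was the member not called, at 0.17. Amino acid transport and synthesis genes rose in 13 of 16 cases and fell in 1, with a median of 0.66. Asns, asparagine synthetase, read 7.01, 7.05 and 6.24 in KO Th0 and 10.11, 9.40 and 9.59 in KO Th17 (log2 2.94), and Slc7a5, the large neutral amino acid transporter, read 8.45, 9.29 and 8.96 and then 10.86, 10.57 and 10.33 (log2 1.69).

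These metabolic rises started from a low KO Th0 level. Set against the WT Th0 mean, the mean level of the cholesterol list was -1.71, -1.21 and -1.41 in the 3 KO Th0 samples and 0.32, 0.30 and 0.37 in the KO Th17 samples, next to 0.29, 0.13 and 0.27 in WT Th17. The glycolysis list lay at -0.88, -0.67 and -0.87 in KO Th0 and at 1.21, 1.06 and 1.31 in KO Th17, next to 1.09, 1.29 and 1.21 in WT Th17. So for both lists the KO and WT Th0 samples did not overlap, while the KO Th17 samples lay near or among the WT Th17 samples. In the Th0 condition 20 of 21 cholesterol genes, 16 of 19 glycolysis genes and 14 of 16 amino acid genes were lower in KO than in WT (19.6% of all genes were lower there), and in the Th17 condition 0 members of these 3 lists were called in either direction by limma (8.21% of all genes were), with 1, 2 and 1 at an unadjusted p under 0.05. These values do not show that the genotypes were equal there. Without KO Th0 sample 1 the KO Th17 rises were 19 of 21, 18 of 19 and 13 of 16, and 0, 1 and 0 members fell.

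**Figure D2:**
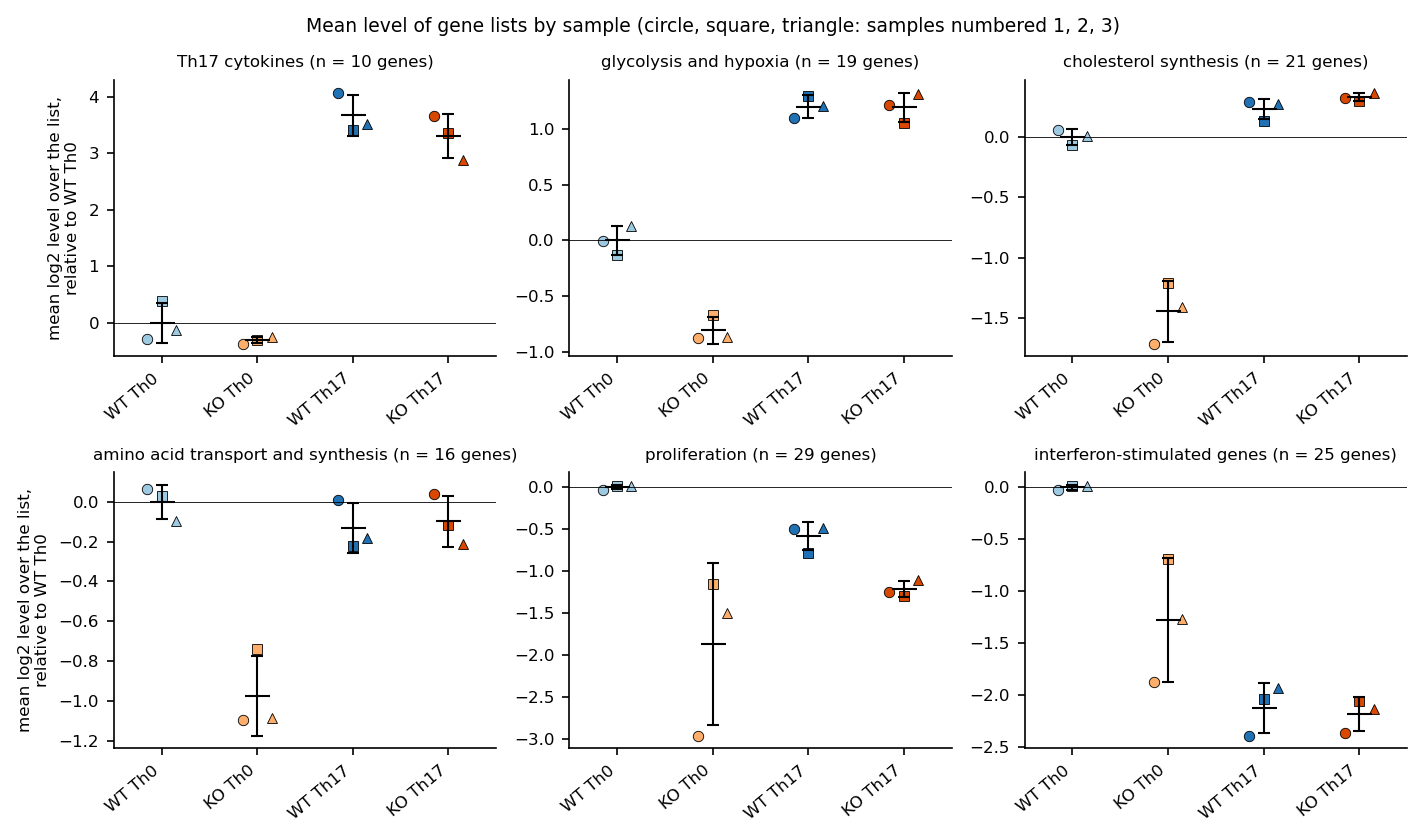
Mean log2 level over the tested members of 6 gene lists in each sample, set to 0 at the WT Th0 mean. Symbols are samples, lines are group means and bars are 1 SD. For cholesterol synthesis, glycolysis and amino acid genes the KO Th0 samples lie lowest and the KO and WT Th17 samples lie at similar levels, and the 3 KO Th0 samples are far apart for the proliferation and interferon-stimulated lists.

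Dapl1 had the largest fall by the naming rule, and several genes of resting and recirculating T cells fell with it. Dapl1, a gene of naive and memory T cells, read 11.28, 11.05 and 11.49 in KO Th0 and 5.35, 5.75 and 5.69 in KO Th17, 51.2-fold lower (log2 -5.68, SE 0.21, adjusted p = 2.4e-18). Klf2, the quiescence factor that keeps T cells recirculating, read 9.73, 9.45 and 9.48 in KO Th0 and 6.55, 6.88 and 6.52 in KO Th17, 7.49-fold lower (log2 -2.90, SE 0.17). S1pr1, the KLF2 target that lets T cells leave lymph nodes, read 10.98, 10.92 and 10.90 in KO Th0 and 9.21, 9.18 and 9.16 in KO Th17 (log2 -1.75). All 3 genes were lower in every Th17 sample. The naive and quiescence list as a whole was mixed, with 12 of 20 tested members lower and 3 higher (9 and 3 without KO Th0 sample 1) and a median of -0.45. Itga4, the α4 integrin subunit, read 9.78, 9.77 and 9.80 in KO Th0 and 5.68, 6.04 and 5.71 in KO Th17, 15.8-fold lower. Rasgrp2, an activator of the small GTPase Rap1 that controls integrins, read 10.30, 10.15 and 10.11 in KO Th0 and 5.82, 5.59 and 5.68 in KO Th17, 22.5-fold lower. St8sia6, a sialyltransferase, read 10.27, 9.03 and 10.24 in KO Th0 and 5.86, 6.13 and 5.76 in KO Th17 (log2 -3.93). Ipcef1 (-4.46) and Ms4a4b (-4.30), a membrane protein of naive T cells, were also among the 10 lowest.

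Interferon-inducible genes took the next places after Dapl1 and made up the rest of the 10 lowest. Ifi209, a PYHIN family gene, read 10.26, 10.68 and 10.58 in KO Th0 and 4.81, 5.28 and 5.12 in KO Th17, 43.3-fold lower. Its relatives Ifi214 (-4.97) and Ifi208 (-4.27) and the IFIT relative Ifit1bl1 (-4.70) fell with it, but the PYHIN genes are near-identical copies and their probe sets may share signal. In the list of interferon-stimulated genes, 14 of 25 tested members fell and 2 rose, with a median of -1.07, and without KO Th0 sample 1 the counts were 15 and 0. The WT step lowered more of them, 22 of 25, with a median of -1.58. KO Th0 started lower, with list means of -1.88, -0.69 and -1.27 relative to WT Th0. With all samples kept, 18 of 25 members were lower in KO than in WT Th0 (19.6% of all genes were). Oas2, an antiviral RNA sensor, read 5.29, 7.89 and 6.38 in KO Th0 and 4.81, 4.91 and 4.70 in KO Th17 (log2 -1.71, adjusted p = 0.0025, or -1.03 and 0.048 without KO Th0 sample 2). Rtp4 read 6.34, 9.09 and 7.67 in KO Th0 and 4.88, 4.72 and 4.48 in KO Th17 (log2 -3.00). KO Th0 sample 2 was the highest and sample 1 the lowest of the group for both genes, and the KO Th17 samples were all low.

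Genes of other helper fates did not move as blocks, in a step where 25.4% of all genes rose and 26.2% fell. Foxp3 read 11.56, 11.13 and 11.72 in KO Th0 and 8.05, 7.73 and 7.35 in KO Th17, 13.5-fold lower (log2 -3.76, SE 0.35, adjusted p = 5.1e-10). The Th0 cells of both genotypes were thus high for this Treg gene, at 10.70, 11.23 and 10.78 in WT Th0, and KO Treg was higher still at 12.11, 11.93 and 12.09. Of 19 tested Treg list members 7 rose and 3 fell (7 and 2 without KO Th0 sample 1), and the median was 0.23: Nrp1 (-1.18) and Ikzf2 (-0.73) fell with Foxp3, and Tnfrsf9 (3.38) and Tigit (3.19) rose. Gata3, the Th2 master regulator, read 9.12, 8.89 and 9.54 in KO Th0 and 7.26, 7.41 and 7.44 in KO Th17 (log2 -1.82, SE 0.17, adjusted p = 5e-10). Il4 stayed near background, at 4.15, 4.58 and 4.42 and then 4.40, 4.13 and 4.26 (log2 -0.12, adjusted p = 0.63), and Il13 rose by 0.99 (SE 0.32, adjusted p = 0.01). In the Th2 list 5 of 11 members rose and 2 fell, the risers including the chemokine receptors Ccr4 (2.31) and Ccr8 (2.13). In the Th1 list 9 of 18 rose and 3 fell. Tbx21, the Th1 master regulator, was not called (-0.13, adjusted p = 0.68). Ifng read 5.36, 5.26 and 6.86 in KO Th0 and 5.61, 5.12 and 5.42 in KO Th17, overlapping groups (log2 -0.45, adjusted p = 0.49). The Th1 members that rose were mainly chemokines and receptors, such as Il12rb2 (2.83), and the cytotoxic gene Gzmb fell by 2.88.

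Activation and checkpoint genes rose. Of 24 tested activation genes 17 rose and 1, Cd40lg (-1.41), fell, with a median of 0.93. Nr4a1, an immediate target of T cell receptor signalling, read 7.91, 7.43 and 8.53 in KO Th0 and 11.42, 11.48 and 11.40 in KO Th17 (log2 3.48, SE 0.73, adjusted p = 0.00021). Every Th17 sample lay above every Th0 sample. Of 10 tested inhibitory receptors 6 rose and 0 fell, led by Lag3, at 5.13, 5.26 and 5.22 in KO Th0 and 9.09, 8.76 and 9.33 in KO Th17 (log2 3.86), and Tigit, at 5.03, 4.88 and 5.41 and then 8.15, 8.32 and 8.42. Pdcd1, which encodes PD-1, rose by 1.99. Il2, the T cell growth factor, read 3.97, 3.94 and 5.28 in KO Th0 and 7.54, 7.44 and 6.60 in KO Th17 (log2 2.80, SE 0.62, adjusted p = 0.00038). In the IL-2 and STAT5 list 3 of 12 members rose and 1 fell (4 and 1 without KO Th0 sample 1). Rises there were near the share over all genes, of which 25.4% rose and 26.2% fell. Among 12 Tfh genes 7 rose and 2 fell, with Tox2 (2.22) higher and Tox (-2.39) lower. Homing receptors split: 9 of 17 chemokine receptors and integrins rose and 4 fell, the risers led by Ccr6 and Cxcr4 (2.55) and the falls formed by the integrin subunits Itga4, Itgb3 (-2.72), Itga2 (-1.38) and Itgb7 (-1.04).

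The rise of proliferation genes was not stable under several alternatives, among them leaving out 1 array. Of 29 tested, 8 rose and 0 fell (25.4% and 26.2% of all genes did), with a median of 0.64, but without KO Th0 sample 1 only 2 rose and the median was 0.04. A low KO Th0 level was common to all 3 samples, with list means of -2.96, -1.15 and -1.49 relative to WT Th0. With all samples kept, 29 of 29 members were lower in KO than in WT Th0 (19.6% of all genes were), and 2 of 29 were lower in Th17 (4.18% of all). Mki67, a general marker of cycling cells, read 8.61, 10.86 and 10.64 in KO Th0 and 10.50, 10.48 and 10.82 in KO Th17 (log2 0.56, adjusted p = 0.27), with KO Th0 sample 1 far below the other 5. Among the called members, Bub1 went from 1.20 to 0.37 (adjusted p = 0.49) without that sample and Cdc6 from 1.29 to 0.81 (adjusted p = 0.10). Bub1 also lost its limma call without KO Th17 sample 1, 2 or 3 (adjusted p = 0.058, 0.052 and 0.1). Aurkb (adjusted p = 0.067) and Tpx2 (adjusted p = 0.09) lost theirs without KO Th17 sample 3. Mcm3 kept its call in all these fits. Of 19 Myc and ribosome biogenesis genes 7 rose and 1 fell (5 and 1 without KO Th0 sample 1), and the median was 0.26. Of 15 p53 targets 7 rose and 2 fell, or 4 and 1 without KO Th0 sample 1. The stress list had 8 of 10 members higher and 1 lower, led by Atf3 (2.85), and 4 and 0 without KO Th0 sample 1.

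**Figure D3:**
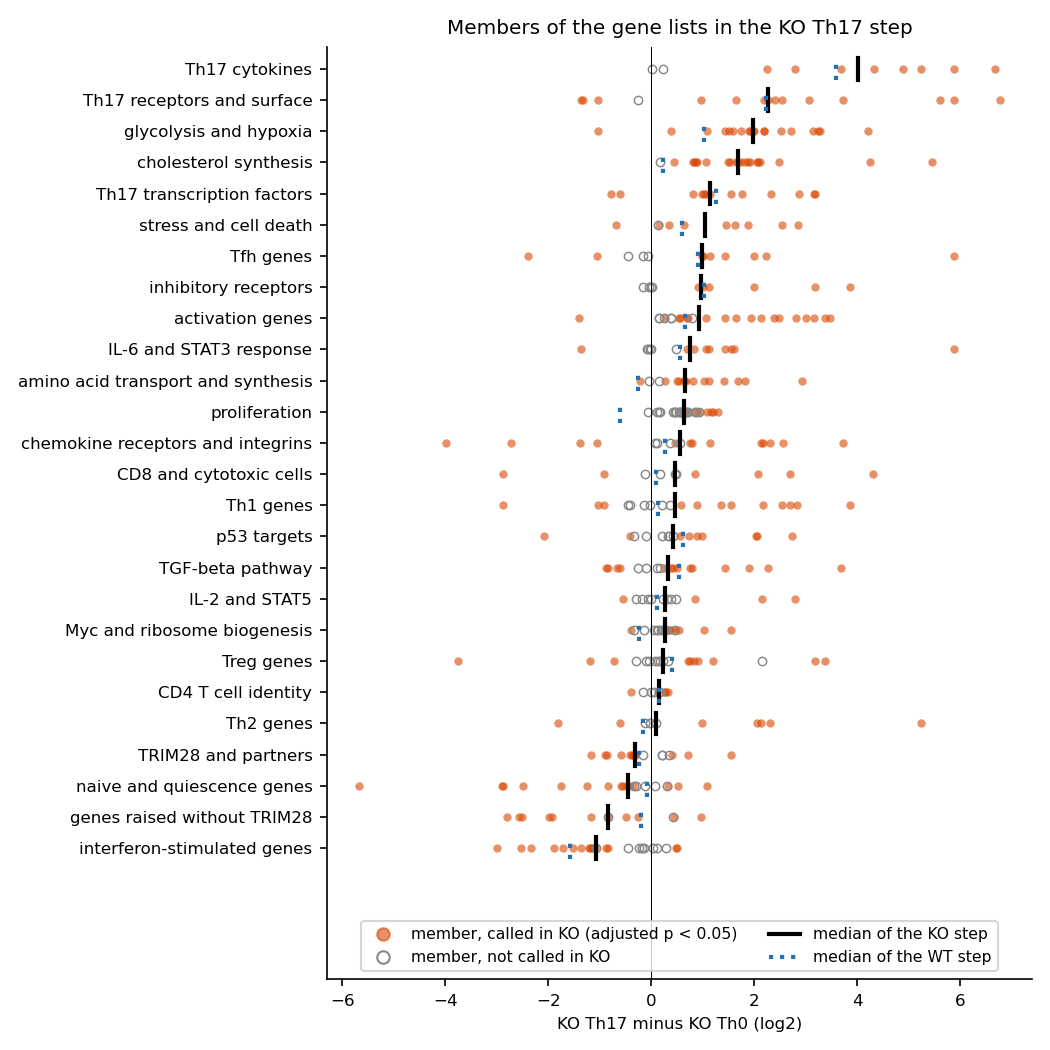
Log2 change from KO Th0 to KO Th17 of every tested member of 26 gene lists, ordered by list median. Filled points passed the limma test and open points did not, the black bar is the list median in KO cells and the dotted bar the list median of the same step in WT cells. Th17 cytokines have the highest median at 4.01 and interferon-stimulated genes the lowest at -1.07.

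The step was next compared with the same step in WT cells, through the difference of the steps, (KO Th17 minus KO Th0) minus (WT Th17 minus WT Th0). This difference uses the same KO arrays as the step itself, so its values are set beside the others and not counted as a separate observation. It was called for 2044 of 13082 genes (15.6%), 969 higher (7.41%) and 1075 lower (8.22%) in KO, a split that became 1438 and 876 after cyclic loess. Without KO Th0 sample 1 the count was 1277. The 2 genotypes moved 1983 genes up together and 1689 down together, and 1285 genes rose and 1682 fell with a call in KO cells alone, which by itself is no test of a difference. Of the 969 higher differences 708, and of the 1075 lower ones 824, had KO and WT called apart, in the opposite direction, in Th0 and not in Th17. In 156 and 142 they were called apart, in the same direction, in Th17 and not in Th0. These counts reuse the arrays of the difference, and a missing call does not mean equal levels. On which side a difference lay was therefore not tested. Between KO and WT 4765 genes were called in Th0 (36.4%), as 2199 higher and 2566 lower, or 1654 and 3005 after centring each array on its median, and 1074 were called in Th17 (8.21%), 527 higher (4.03%) and 547 lower (4.18%). The last count was 709 without KO Th17 sample 1, 677 without WT Th17 sample 1 and 622 without WT Th17 sample 3.

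**Figure D4:**
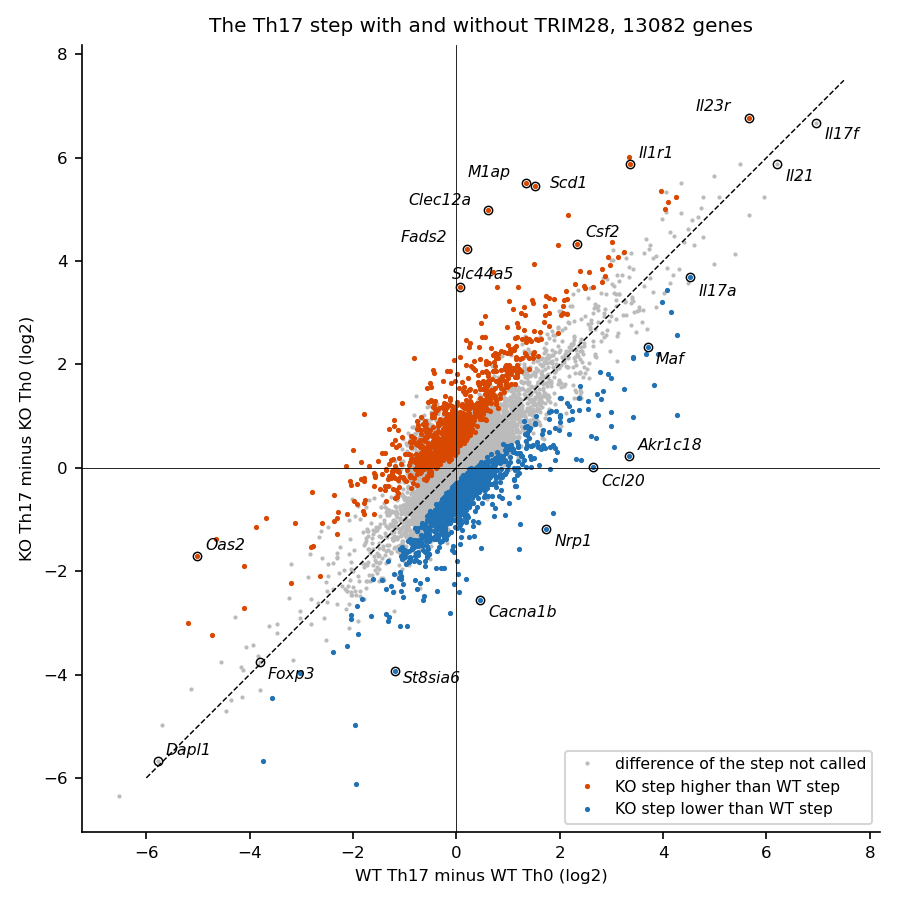
Log2 change from Th0 to Th17 in WT cells (horizontal) and in KO cells (vertical) for each of 13082 genes. Orange and blue points are genes whose difference of the steps passed the limma test, higher or lower in KO, the dashed line marks equal steps, and circled genes are named. Il17f, Il21, Foxp3 and Dapl1 lie near the dashed line, while Clec12a, M1ap and Scd1 lie above it and Akr1c18, Ccl20 and Nrp1 below.

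Within the Th17 program the difference of the steps was called for 4 of 10 tested cytokines, 2 higher and 2 lower in KO, and for 7 of 15 receptors and surface genes, 4 higher and 3 lower. Over all genes it was called for 15.6%, with 7.41% higher and 8.22% lower. Without KO Th0 sample 1 the higher and lower calls were 2 and 1 for cytokines and 4 and 1 for receptors. The difference was -0.28 for Il17f (adjusted p = 0.61) and -0.33 for Il21 (adjusted p = 0.62). For Il17a the WT samples went from 4.22, 4.11 and 3.99 to 9.13, 8.78 and 8.0, a rise of 4.53, and the difference of -0.84 (SE 0.27, adjusted p = 0.032) was lost under several alternatives, among them without KO Th17 sample 3 (-0.56, adjusted p = 0.12), without KO Th0 sample 1 (-0.78, adjusted p = 0.085) and without WT Th17 sample 1 (-0.60, adjusted p = 0.11). Il1r1 made the larger step in KO: WT samples went from 3.68, 3.86 and 3.99 to 7.31, 7.49 and 6.82, so KO Th17 lay 2.57 above WT Th17 with no overlap (difference of the steps 2.51, SE 0.28, adjusted p = 8.6e-07). Csf2 read 4.26, 5.94 and 4.46 in WT Th0 and 7.48, 6.83 and 7.37 in WT Th17 (difference 2.0, SE 0.45, adjusted p = 0.0029). Il23r read 8.92, 9.98 and 9.68 in WT Th17, below every KO Th17 sample, with a difference of 1.11 (SE 0.31, adjusted p = 0.014) that was lost without KO Th17 sample 3 (0.86, adjusted p = 0.055) or WT Th17 sample 1 (0.80, adjusted p = 0.053).

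Maf and Ccl20 made the smaller step. Maf read 5.45, 5.96 and 5.44 in WT Th0 and 9.69, 9.23 and 9.04 in WT Th17, above all KO Th17 samples (difference -1.37, SE 0.23, adjusted p = 0.00018). Ccl20 read 5.46, 5.78 and 5.55 in WT Th0 and 9.30, 7.62 and 7.83 in WT Th17, so the rise of 2.65 in WT cells had no counterpart in KO (difference -2.63, SE 0.33, adjusted p = 5.9e-06). KO Th17 samples were thus high for the receptor Ccr6 and at the Th0 level for its ligand. Ltb4r1, the leukotriene B4 receptor, rose by 2.20 in KO and 3.91 in WT (difference -1.71, adjusted p = 0.00019). Foxp3 fell in both genotypes, by 3.76 in KO and 3.81 in WT, with a difference of 0.05 (adjusted p = 0.96). Nrp1, a coreceptor on Treg and activated T cells, went in opposite directions: KO samples fell from 8.70, 8.37 and 9.23 to 7.33, 7.52 and 7.90, and WT samples rose from 5.92, 7.67 and 6.91 to 8.67, 8.18 and 8.88 (difference -2.92, SE 0.41, adjusted p = 3e-05).

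The 5 highest differences among genes whose KO Th17 and KO Th0 samples did not overlap followed 2 patterns. Clec12a, an inhibitory lectin receptor of myeloid cells, read 3.90, 4.11 and 4.0 in KO Th0 and 8.46, 9.52 and 9.02 in KO Th17, against 3.78, 3.88 and 4.06 in WT Th0 and 4.70, 4.47 and 4.36 in WT Th17 (difference 4.39, SE 0.30, adjusted p = 6.2e-11). M1ap read 4.76, 4.63 and 4.44 in WT Th0 and 5.71, 5.97 and 6.18 in WT Th17 (difference 4.17, SE 0.31, adjusted p = 2.7e-10). Slc44a5, a choline transporter-like gene, read 3.48, 3.48 and 3.56 in KO Th0 and 6.94, 7.09 and 6.99 in KO Th17, against 3.11, 3.44 and 3.27 and then 3.41, 3.42 and 3.21 in WT (difference 3.43, SE 0.20, adjusted p = 1.8e-12). In these 3 genes KO Th0 was near the WT Th0 level and KO Th17 stood far above the other groups. Clec12a and M1ap also read higher in every WT Th17 sample than in every WT Th0 sample, by much less. Scd1 and Fads2 had differences of 3.94 (adjusted p = 0.00027) and 4.03 (adjusted p = 0.001) and the other pattern: Scd1 read 9.18, 8.62 and 8.50 in WT Th0 and 10.49, 10.08 and 10.30 in WT Th17, so KO Th0 was low and the Th17 groups met.

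Among the lowest differences by the same rule, Akr1c18, a steroid dehydrogenase, read 6.78, 6.64 and 6.55 in WT Th0 and 10.20, 9.41 and 10.40 in WT Th17, but 4.57, 4.66 and 4.67 in KO Th0 and 4.91, 4.71 and 4.98 in KO Th17 (difference -3.12, SE 0.44, adjusted p = 3.3e-05). Cacna1b, a neuronal calcium channel subunit, read 8.17, 7.62 and 8.01 in KO Th0 and 5.32, 5.48 and 5.31 in KO Th17, against 4.73, 4.71 and 4.77 and then 5.13, 5.23 and 5.24 in WT (difference -3.02, adjusted p = 3.9e-08). The first gene was low in KO throughout, and the second was high in KO Th0 and near the WT level in KO Th17. Gucy1a1, a soluble guanylate cyclase subunit, went from 7.10, 6.74 and 6.30 to 4.71, 4.97 and 5.75 in KO (difference -2.78). Prss12, a serine protease, fell by 0.87 in KO and rose by 1.88 in WT (difference -2.75, adjusted p = 2e-05).

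**Figure D5:**
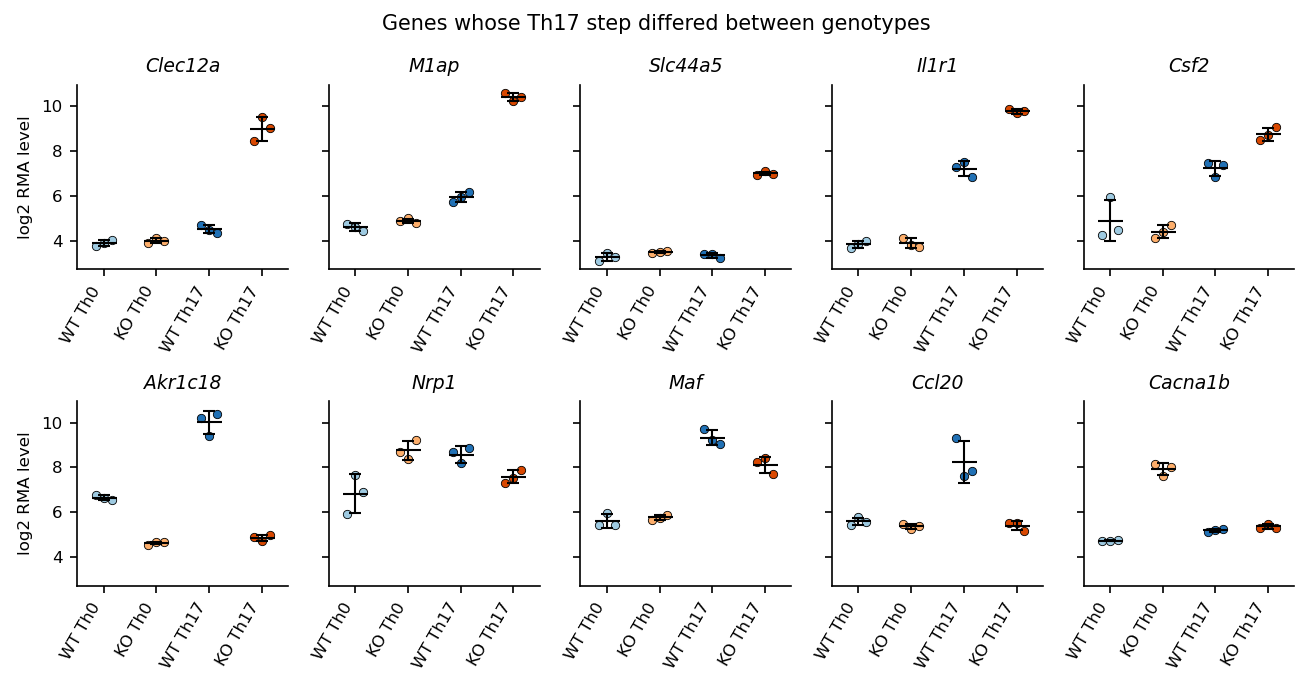
Log2 RMA level by sample of 10 genes whose step from Th0 to Th17 differed between genotypes. Points are samples, the horizontal line is the group mean and the bars are 1 SD. Clec12a, M1ap and Slc44a5 stand far higher in KO Th17 than in the other groups, with smaller rises of Clec12a and M1ap in WT. Akr1c18 and Ccl20 rise in WT with little or no change in KO, and Cacna1b is high in KO Th0 alone.

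Genes tied to TRIM28 itself fell more often than they rose. Of 16 tested genes of TRIM28 and its partners 9 fell and 3 rose (8 and 2 without KO Th0 sample 1), and the median was -0.32. Over all genes 26.2% fell and 25.4% rose. Setdb1, the methyltransferase that TRIM28 recruits, read 10.29, 10.52 and 10.71 in KO Th0 and 11.12, 11.25 and 11.28 in KO Th17 (log2 0.71), against 9.55, 9.37 and 9.46 and then 9.42, 9.24 and 9.36 in WT, so KO lay above WT in both conditions. Uhrf1 rose by 1.56, or by 0.92 (adjusted p = 0.058) without KO Th0 sample 1, and Trim24 (-0.90), Trim33 (-0.87) and Morc3 (-1.17) fell. A list of 13 genes that earlier results of these data showed higher without TRIM28 was chosen on these samples and is no independent evidence: 9 fell and 2 rose from KO Th0 to KO Th17 (8 and 2 without KO Th0 sample 1), with a median of -0.84. Snai3, a member of it, read 9.65, 9.69 and 9.67 in KO Th0 and 7.01, 6.71 and 6.88 in KO Th17, against 7.08, 6.87 and 6.97 and then 6.84, 6.85 and 6.88 in WT, so its excess in KO was seen in Th0 and not in Th17. Pgpep1l read 11.43, 11.18 and 11.31 and then 9.85, 10.23 and 10.31 in KO, and 5.75 to 6.80 in WT, so its excess was seen in both conditions.

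KO Th17 was also set against the other stimulated KO cultures, in comparisons that share the KO Th17 arrays and, for Th0, the KO Th0 arrays. Against KO Treg, chosen for the TGF-beta requirement known for both fates, 6816 genes were called (52.1%), 3592 higher (27.5%) and 3224 lower (24.6%). By the naming rule the 5 highest were Il23r, Il17f, Ly6g, Cysltr1 and Il1r1. Cysltr1, a receptor for cysteinyl leukotrienes, read 4.79, 4.78 and 5.66 in KO Th0, 10.46, 10.33 and 10.51 in KO Th17 and 4.21, 3.95 and 4.77 in KO Treg. Its high level was not particular to Th17, since its mean was 10.42 in KO Th2 and 10.43 in KO Th17. Glp1r, the incretin receptor, had the lowest value, -5.88, with 11.17, 11.02 and 11.12 in KO Treg and 5.29, 5.36 and 5.03 in KO Th17, followed by Pcp4 (-5.01), Ipcef1 (-4.65), Apol9b (-4.50) and Atp1b1 (-4.44), a sodium pump subunit. Ahr and Maf, both above the Th0 level in KO Th17, were not called against KO Treg: Ahr read 8.95, 9.15 and 9.31 in KO Treg (KO Th17 minus KO Treg 0.64, adjusted p = 0.071) and Maf 8.19, 8.34 and 8.31 (-0.17, adjusted p = 0.38).

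Against KO Th1 46.6% and against KO Th2 38.1% of genes were called. KO Th2 thus had the fewest calls of the 4 other stimulated KO cultures, and KO Treg had the most. Against all 4 other stimulated KO conditions, 1365 genes were higher in KO Th17 each time (10.4%) and 848 lower each time (6.48%). Ranked by the smallest of the 4 differences, the highest were Il23r (smallest difference 6.55), Il17f (6.37), Klri2 (5.15), Timp1 (4.96) and Il9 (4.68). These 5 are 1 receptor, 2 cytokines, 1 protease inhibitor and 1 surface lectin gene. The lowest by the same rule were Ifi209 (smallest difference 2.91), Rasgrp2 (2.43), Cmtm7 (2.02), Cd7 (1.98) and Klf2 (1.98). Cd7, a T cell surface protein, read 10.81, 10.65 and 10.69 in KO Th0 and 7.58, 7.95 and 8.28 in KO Th17, and Cmtm7, a membrane protein, read 9.13, 8.99 and 8.85 and then 6.75, 6.79 and 6.91.

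Markers of other cells were read in the same arrays, since the cultures were grown from flow-sorted naive CD4 T cells and no sort after culture is named. Of 9 B cell markers with a probe set, all 9 were below the table's median level in every KO Th0 sample, with a mean of 4.47 to 4.60, and in KO Th17 the mean was 5.57 to 5.66. In KO Th17 the defining markers Cd79a, Ms4a1 and Pax5 were still among the 6 below that level, and the rise came from Ebf1, at 4.37, 4.37 and 4.49 in KO Th0 and 8.78, 8.65 and 9.27 in KO Th17, and the MHC class II gene H2-Ab1, at 5.25, 5.21 and 5.06 and then 10.33, 9.89 and 10.33, with a smaller rise of Cd79b (0.96). Of the 4 B cell markers bright enough to test, those 3 rose and Pax5 (-0.04) was not called. Starting below the median level in KO Th0, these markers had little room to fall. The same 2 genes were high in WT Th17 (Ebf1 at 8.32 to 8.85, H2-Ab1 at 9.92 to 10.14). The mean of 13 myeloid markers was 4.60 to 4.70 in KO Th0 and 4.71 to 4.81 in KO Th17, and 10 of them, Lyz2, Csf1r, Cd14 and Itgax included, were below the median level in every KO Th17 sample. Of the 4 tested, Cd68 (1.13) and Itgam (0.48) rose and Adgre1 (-0.54) fell. Of 10 tested CD8 and cytotoxic markers 4 rose and 2 fell (3 and 2 without KO Th0 sample 1), against 25.4% and 26.2% of all genes. The mean of the CD8 and cytotoxic list went from 5.65 to 6.47 in KO Th0 to 6.76 to 6.90 in KO Th17. Cd8a (-0.12) was not called, and Klrc1, a natural killer receptor, read 3.90, 3.99 and 4.24 and then 8.17, 8.71 and 8.19. The 6 natural killer and γδ T cell markers had means of 5.37 to 5.45 and 5.47 to 5.69, with neither of the 2 tested called, 1 of them at an unadjusted p under 0.05, and the 3 erythroid markers 4.40 to 4.63 and 4.94 to 5.24, with Car2 (1.52) higher. Their part in the changes of other genes was not tested.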

How the data were processed

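Gene expression was measured on Affymetrix arrays, run on a GeneTitan per the labels' protocols. The deposited values are log2 intensities that the authors made by RMA with oligo in R 3.1.0, per the submitters' processing notes, and they ran from 2.05 to 13.5. RMA puts all arrays on one distribution, so changes shared by most genes are lost. Of 41345 probe sets, 23521 carried 1 symbol, 1814 several and 16010 none. The brightest of several probe sets stood for a gene (1082 genes). A gene was tested if 3 or more samples exceeded 5.26, the median of all deposited values. A gene bright in 1 group alone could thus pass through that group, which favors a rise there. A limma 3.58.1 model (R 4.3.3) of 12 group means was fitted to all 36 samples with 24 residual degrees of freedom, so groups share 1 estimate of spread, and p-values were adjusted by Benjamini-Hochberg within each of 8 comparisons. The fit was also run on simulated data with few changed genes and independent noise. Such data differ from these arrays, so that run does not vouch for the calls. Depth does not apply to arrays, and the 3 samples per group limit the precision.

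Named genes were the 10 highest and 10 lowest changes without overlap of the KO groups, up to 6 largest per list and a fixed set. Added were the 5 highest and 5 lowest of the difference of the steps, of KO Th17 against KO Treg and against every other stimulated KO condition. For the difference, KO Th17 and KO Th0 also had to not overlap, and for KO Treg, KO Th17 and KO Treg. Genes with overlapping KO groups were thus left out of these rankings. Sex-linked and uncharacterized genes stayed out of the rankings. Genes named beyond these, such as Ccl20, Lif, Il6ra, Smad7, Snai3 and Setdb1, were chosen after their values were seen. The 31 gene lists hold 469 genes, of which 48 have no probe set with 1 symbol. Members and lists were chosen with earlier results of these data known. The alternatives were quantile, median and cyclic loess scaling, other filters and probe set rules, array weights, replicate blocks, smaller fits and leaving out each sample. Promoter windows are from RefSeq (GRCm38.p6, 27025 genes).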

Additional observations from a re-analysis of the deposited data

Results flagged for a closer look

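The step from Th0 to Th17 differed between genotypes for 2044 of 13082 genes by the test of the difference itself, limma's interaction contrast. Of 410 named genes and list members tested, 137 had such a call, and 34 of them, with a difference of at least 2 on the log2 scale or in the fixed set, are given here as (KO Th17 minus KO Th0) minus (WT Th17 minus WT Th0). Their explanation was not tested.

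Among cytokine and receptor genes, the difference was 2.51 for Il1r1, 1.11 for Il23r, 2.0 for Csf2, 2.32 for Lif, 2.12 for Il18rap, 2.95 for Ccr8 and 2.67 for Ly6g, and it was -0.84 for Il17a, -2.63 for Ccl20, -1.04 for Il4 and -2.92 for Nrp1. For Ly6g the WT samples read 4.38, 4.33 and 4.30 in Th0 and 8.68, 7.73 and 6.63 in Th17, below all KO Th17 samples. Il4 read 4.60, 5.19 and 4.92 in WT Th0 and 5.36, 5.90 and 6.21 in WT Th17, so it was the WT cells that moved.

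Lipid and amino acid genes had differences of 4.03 (Fads2), 3.94 (Scd1), 2.30 (Fdps), 2.13 (Hmgcs1), 2.0 (Sqle), 2.38 (Asns) and 2.25 (Psat1). All 7 had KO below WT in Th0. Interferon-stimulated genes had differences of 3.30 (Oas2), 3.27 (Oasl2), 2.34 (Rsad2), 2.21 (Usp18), 2.19 (Rtp4) and 2.06 (Ifit1). In WT Th0, Oas2 read 9.92, 9.86 and 10.01, above every KO Th0 sample. The KO Th0 samples were far apart for this gene, at 5.29, 7.89 and 6.38.

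Further genes with a higher step in KO were Clec12a (4.39), M1ap (4.17), Slc44a5 (3.43) and Uhrf1 (2.04). Those with a lower step were Akr1c18 (-3.12), Cacna1b (-3.02), Gucy1a1 (-2.78), Prss12 (-2.75), St8sia6 (-2.74) and Snai3 (-2.69). Without KO Th0 sample 1 the calls for Uhrf1 (1.41, adjusted p = 0.089) and Rtp4 (1.51, adjusted p = 0.096) were lost.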

How the results depend on the processing

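Of the alternatives tried for the counts, a minimum log2 change of 1 in addition to the test left 1716 calls for KO Th17 against KO Th0, 1291 for WT Th17 against WT Th0, 546 for the difference of the steps, 217 and 753 for KO against WT in Th17 and in Th0, 1926 against KO Treg, 447 against every other stimulated KO condition and 167 list members. Array weights raised the difference of the steps to 3491 and KO against WT in Th17 to 2807 calls. Leaving out 1 replicate each gave 5919 to 6449 calls for KO Th17 against KO Th0 and 1277 to 2385 for the difference of the steps, lowest without KO Th0 sample 1. The same gave 622 to 1072 for KO against WT in Th17. Whether samples of equal number were paired was not settled. Their deviations correlated at 0.13, 0.004 and 0.15 between KO Th17 and KO Th0, against -0.17 to 0.05 for samples of unequal number. With KO Treg the values of equal number were 0.17, 0.10 and 0.18, and between WT Th17 and WT Th0 0.20, 0.05 and 0.03. With a replicate block the step had 6999 calls and the difference of the steps 2416. An alternative added after seeing the data, dropping sample 1 of both KO Th0 and KO Th1, gave 6007 calls for the step and 1553 for the difference. For named genes, 4693 values under alternatives kept their direction and side of the threshold, 142 were no longer called, 38 became called, 33 moved without a test call and 0 reversed. The median changes of the lists kept their sign under all 3 scalings. Signals near background, such as Il4 and Il22, limit what can be said of low genes.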

Other observations

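Over the 12 group means of the series, the gene with the level pattern most like Il17a was Crispld2, a secreted protein gene (Pearson correlation 0.998), followed by Gap43, a growth-associated protein of neurons (0.996), Klrc3 (0.995), Pdpn, the glycoprotein podoplanin (0.995), Klrc2 (0.994) and Il17f (0.992). The points share arrays and 10 of the 12 groups lie low for Il17a, so these values describe a pattern of being high in both Th17 groups. Crispld2 rose by 3.21 (SE 0.16) in KO cells and by 3.98 in WT cells, and Gap43 by 3.40 and 3.81. Klrc2 and Klrc3 are close copies whose probe sets may share signal.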
